A study of Mus musculus with 12 samples.

Results

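The genes of the lysosomal proton pump, the cathepsins and the LAMP membrane proteins were followed in the livers of ob/ob mice with and without ethionine. Members were taken from the raw count table by symbol: every protein-coding gene whose name begins with Atp6v0 or Atp6v1, is Cts plus 1 letter, or is Lamp plus 1 digit, with 10 or more counts in at least 6 of the 12 libraries. Of 47 matching symbols 45 were protein-coding, and 31 of these passed the count minimum, among 12558 protein-coding genes of the table that did so. The 31 comprise 17 V-ATPase subunit genes, 12 cathepsin genes and 2 LAMP genes.

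The study sequenced poly(A) RNA from whole livers of ob/ob mice, which carry a leptin mutation (B6.Cg-Lep ob/J) and become obese, and which the labels give as male. The study's methods put their age at 8 to 10 weeks. The OBOB_FLO group (6 mice) ate standard chow. The OBOB_Fibrotic group (6 mice) ate the same chow and also received ethionine, the ethyl analogue of methionine. The leptin mutation is therefore shared by both groups and no lean mice enter the comparison. The labels give the ethionine as 0.165% DL ethionine in drinking water and, in the growth protocol, as an injection of 0.15%, the series text gives 2 weeks, and the study's methods give 0.15% for 1 week. The dose, route and duration are therefore uncertain.

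Lysosomes digest material delivered by endocytosis, phagocytosis and autophagy. The V-ATPase acidifies them: its cytosolic V1 sector hydrolyses ATP, and the turning of its central stalk drives protons through the membrane-embedded V0 sector. Cathepsins are the proteases that work in the acidic lumen, and the LAMP proteins are abundant glycoproteins that line the lysosomal membrane. In liver, hepatocytes and resident macrophages (Kupffer cells) both carry many lysosomes.

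Total counts per library ran from 17815568 to 24814263. Xist, which is transcribed from an inactive X chromosome, had 3773 counts in FLO replicate 3 and 0 to 4 in the remaining libraries, and the Y-linked Ddx3y had 4 counts there and 556 to 977 elsewhere. That library therefore goes against its male label, and the calls that change without it are given with the genes and at the end. Summed CPM (reads of a gene relative to library size after TMM scaling) of 10 hepatocyte markers was 57204 to 96228 in fibrotic and 84980 to 100046 in FLO livers, so the labelled tissue was recognisable in every library. The name fibrotic is that of the label. Col1a1, the main fibrillar collagen chain of scar tissue, had 11.3 to 46.8 CPM in these livers and 12.7 to 42.2 in FLO livers (log2 fold change -0.22, edgeR adjusted p = 0.611). Acta2, a gene of activated stellate cells and smooth muscle, was called lower at -1.15 (edgeR adjusted p = 0.00446), a call lost in 7 of 20 alternative fits.

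Of the 14 protein-coding symbols that missed the minimum, 9 had 0 counts in every library: Lamp3, Lamp5, Ctsg, Ctsm, Ctsq, Ctsr, Atp6v1g3, Atp6v1e2 and Atp6v1fnb, the last of which shares the name pattern without being a pump subunit. Atp6v0a4, Atp6v1b1 and Atp6v1c2, subunit forms best known from kidney and other acid-secreting epithelia, and the cathepsins Ctsj and Ctsw were counted in too few libraries. The member just inside the minimum was Ctse, with 10 or more counts in 7 of 12 libraries, and the gene just outside was Ctsj, with 5 of 12.

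RefSeq promoter windows of 300 bases, from 250 before to 50 after the start, were available for 22 of the 31 members. They are shown because lysosomal genes are known for the E-box CACGTG, the core of the element bound by TFEB and its relatives. CACGTG, which reads the same on both strands, lay in the windows of 9 of the 22 members (40.9%), against 8.09% of the 27025 genes in the same table and 7.15% of its 32851 windows. The longer TCACGTG, searched on both strands and containing the first motif, lay in 7 of the 22 (31.8%), against 4.29% of genes, and the related CATGTG in 3 (13.6%), against 15.9% of genes. The 27025 genes were not filtered by coding type or counts as the members were, so these shares come from unlike sets. The 9 members with CACGTG were Atp6v0b, Atp6v0d1, Atp6v0e, Atp6v1a, Ctsa, Ctsd, Ctsf, Ctsl and Lamp1.

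Printed here are the windows of a called pump gene with the motif, a called protease gene with it, the LAMP gene with most matches and the pump gene with the highest fold change, which has none. All are from RefSeq on GRCm38.p6, written 5′ to 3′ on the gene's strand, with CACGTG in capitals. The window of Atp6v0e is chr17:26676146-26676445 on the plus strand, that of Ctsd is chr7:142387778-142388077 on the minus strand, that of Lamp1 is chr8:13158911-13159210 on the plus strand and that of Atp6v0e2 is chr6:48537319-48537618 on the plus strand.
Atp6v0e: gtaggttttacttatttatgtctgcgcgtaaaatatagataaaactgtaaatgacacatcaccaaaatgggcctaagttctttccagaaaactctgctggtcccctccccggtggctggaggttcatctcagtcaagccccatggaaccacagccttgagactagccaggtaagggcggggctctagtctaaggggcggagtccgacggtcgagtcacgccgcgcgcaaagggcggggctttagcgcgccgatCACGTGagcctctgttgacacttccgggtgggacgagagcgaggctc
Ctsd: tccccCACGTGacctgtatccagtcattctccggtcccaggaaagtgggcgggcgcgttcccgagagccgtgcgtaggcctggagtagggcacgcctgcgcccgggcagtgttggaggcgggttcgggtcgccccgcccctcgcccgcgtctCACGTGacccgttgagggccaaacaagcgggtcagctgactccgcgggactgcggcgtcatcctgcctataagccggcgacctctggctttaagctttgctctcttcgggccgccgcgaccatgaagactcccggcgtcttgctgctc
Lamp1: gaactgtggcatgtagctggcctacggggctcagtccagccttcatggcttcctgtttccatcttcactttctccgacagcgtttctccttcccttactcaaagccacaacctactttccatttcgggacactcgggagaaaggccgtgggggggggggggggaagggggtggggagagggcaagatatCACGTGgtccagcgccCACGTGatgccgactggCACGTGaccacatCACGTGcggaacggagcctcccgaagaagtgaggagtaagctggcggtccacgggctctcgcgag
Atp6v0e2: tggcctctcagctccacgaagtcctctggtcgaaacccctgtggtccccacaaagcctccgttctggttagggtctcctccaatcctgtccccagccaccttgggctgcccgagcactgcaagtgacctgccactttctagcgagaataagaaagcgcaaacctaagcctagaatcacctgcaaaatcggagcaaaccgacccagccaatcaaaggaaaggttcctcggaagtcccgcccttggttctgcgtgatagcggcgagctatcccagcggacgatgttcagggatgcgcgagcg

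Fibrotic livers were compared with FLO livers by the edgeR quasi-likelihood test over 13416 genes, and calls needed both an FDR (the Benjamini-Hochberg adjusted p) no higher than 0.01 and a log2 fold change beyond 0.5 in size. Among the 31 members 4 rose, 3 fell and 24 were not called. The called share was 22.6%, against 29.9% of all genes tested (15.9% higher and 14.0% lower). Of the 17 pump genes 3 rose and 1 fell (23.5%), and of the 12 cathepsins 1 rose and 2 fell. At an FDR of 0.05 with no fold limit 8 pump genes and 9 cathepsins passed, against 52.1% of all genes. Ctse, 1 of the 2 cathepsins that fell, met the count minimum only through the FLO group, where it was higher, so its inclusion in these counts is no evidence about the class.

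The pump and protease genes had unlike medians. The median log2 fold change was -0.02 over the pump genes, with 7 positive and 10 negative, and 0.25 over the cathepsins, with 9 positive and 3 negative, beside 0.03 over all genes tested. The median absolute log2 fold change was 0.23 for the pump, 0.42 for the cathepsins and 0.38 for all genes. No test of the difference between both lists was made. By library, the median log2 difference from the FLO mean for the pump was between -0.16 and 0.04 in fibrotic livers and between -0.11 and 0.09 in FLO livers. For the cathepsins it was between 0.07 and 0.33 with ethionine and between -0.15 and 0.04 without, so that only the cathepsin medians separated the groups.

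**Figure D1:**
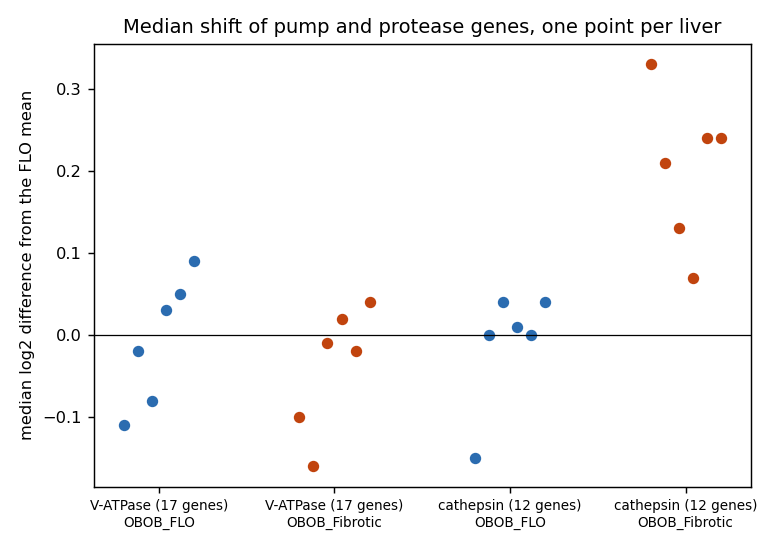
Median log2 difference from the FLO mean in each of the 12 livers (log2 of CPM plus 0.5), over the 17 pump genes and over the 12 cathepsins. Fibrotic and FLO points overlap for the pump, and all fibrotic points lie above all FLO points for the cathepsins.

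**Figure D2:**
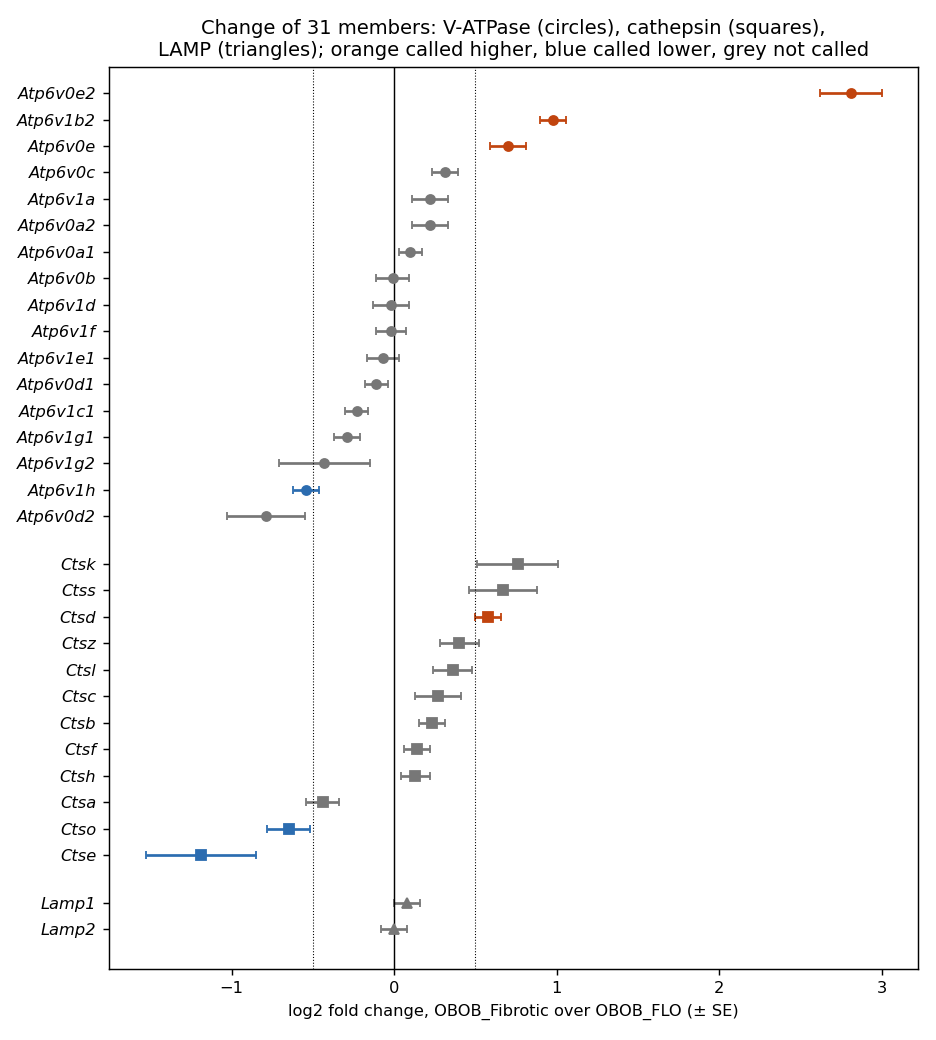
Log2 fold change (fibrotic minus FLO) of each of the 31 members with its standard error, from the edgeR fit over 6 and 6 livers. The pump values run from -0.79 to 2.81, and most lie close to 0.

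In the V0 sector, the largest change of any member was that of Atp6v0e2, a form of the small membrane subunit e that is known from brain. Its CPM was 7.33, 10.5 and 13.9 (lowest, median and highest library) in fibrotic livers and 1.04, 1.49 and 1.84 in FLO livers. No fibrotic library overlapped the FLO range, and the log2 fold change was 2.81 ± 0.19 (SE, n = 6 and 6, edgeR adjusted p = 3.98e-08), a 7-fold difference. The widespread form of subunit e, Atp6v0e, had 64.9, 71.1 and 88.8 CPM in fibrotic and 36.5, 43.8 and 55.4 in FLO livers, again without overlap. It rose by 0.70 ± 0.11 on the log2 scale (SE, edgeR adjusted p = 7.66e-05).

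In the V1 sector Atp6v1b2 rose and Atp6v1h fell. Atp6v1b2 encodes the widespread form of subunit B, which alternates with the catalytic subunit A in the ATP-hydrolysing ring. Its CPM was 97, 103 and 127 in fibrotic and 49.7, 54 and 58.7 in FLO livers, with a log2 fold change of 0.98 ± 0.08 (SE, edgeR adjusted p = 2.26e-07). All 6 fibrotic libraries lay above all FLO libraries. Its partner in the ring, Atp6v1a, had a log2 fold change of 0.22 ± 0.11 (SE, edgeR adjusted p = 0.118) and was not called. Atp6v1h encodes subunit H, which couples ATP hydrolysis to proton transport, and had 35.9, 44.8 and 47.4 CPM in fibrotic and 60.1, 61.6 and 69.8 in FLO livers. The groups did not overlap, and it fell by 0.54 ± 0.08 on the log2 scale (SE, edgeR adjusted p = 3.78e-05). Without fibrotic replicate 2 its log2 fold change was -0.50, at the fold limit, and it was not called.

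Groups that do not overlap were found for 5 pump genes, 3 higher and 2 lower in fibrotic livers, and for 3 cathepsins, 2 higher and 1 lower, against 30.4% of all genes (15.3% higher and 15.1% lower). The second lower pump gene was Atp6v1c1, subunit C of the stalk that holds V1 to V0. It had 28.8, 33.7 and 36.4 CPM in fibrotic and 37.3, 38 and 41.7 in FLO livers, and at a log2 fold change of -0.23 (edgeR adjusted p = 0.0153) it was not called.

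The other 12 pump genes that were not called had log2 fold changes from -0.79 to 0.31. Atp6v0c, the proteolipid of the rotating ring and the pump gene with the highest level per kilobase, met the FDR limit but not the fold limit, at 0.31 ± 0.08 (SE, edgeR adjusted p = 0.00468). Atp6v1g1, subunit G of the peripheral stalk, did the same in the other direction, at -0.29 ± 0.08 (SE, edgeR adjusted p = 0.00694). Atp6v0d2, a form of subunit d known from osteoclasts and macrophages, had a log2 fold change of -0.79 ± 0.24 (SE, edgeR adjusted p = 0.0119) at only 1.38 to 2.38 CPM in fibrotic livers. It was called by DESeq2 (adjusted p = 0.00514) and when FLO replicate 1, FLO replicate 4 or fibrotic replicate 6 was left out.

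Forms of 1 subunit were also set against each other, as a share of their summed CPM per kilobase of the longest principal transcript. These 4 shares and 4 shares of the cathepsin sum were chosen after the data were seen, and p-values from the two-sided exact permutation test are adjusted over all 8. Atp6v0e2 made up 18.2 ± 3.27% (SD, n = 6) of subunit e transcripts with ethionine against 5.06 ± 1.44% (SD, n = 6) without (exact permutation p = 0.00216, the smallest possible, adjusted 0.00866). With the shortest principal transcript the means were 6.16% and 1.54%, so the share itself depends on the transcript assumed. Atp6v0d2 made up 1.44% of subunit d in fibrotic and 2.28% in FLO livers (exact permutation p = 0.0173, adjusted 0.0462), and the unadjusted exact p rose to between 0.0693 and 0.0714 without fibrotic replicate 2, 4 or 5. Atp6v0a2, 35.2% against 33.3% of subunit a, and Atp6v1g2, 2.53% against 2.71% of subunit G, differed by less than the spread between livers (exact permutation adjusted p = 0.557 and 0.714).

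**Figure D3:**
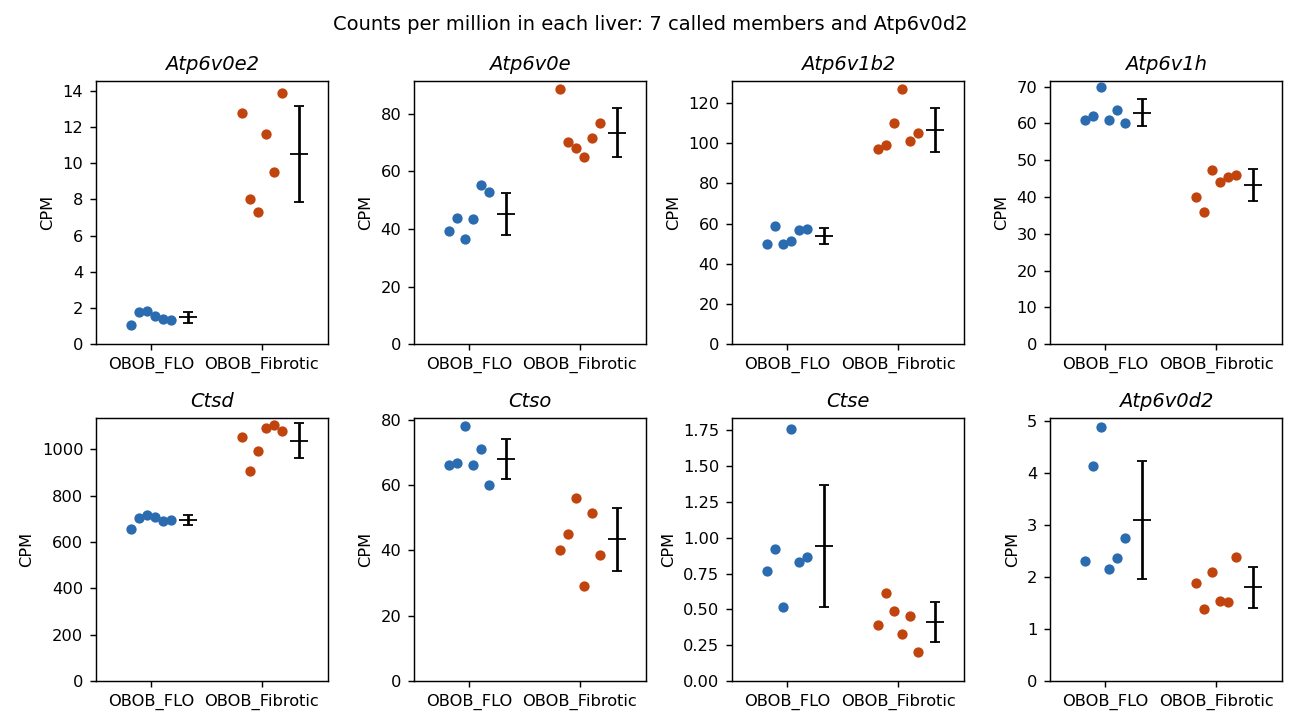
CPM in each of the 12 livers of the 7 called members and of Atp6v0d2, with the mean and SD of each group of 6 beside the points. Atp6v0e2, Atp6v0e, Atp6v1b2 and Ctsd lie higher in every fibrotic liver than in any FLO liver, Atp6v1h and Ctso lie lower, and the groups overlap for Ctse and Atp6v0d2.

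Among the proteases, Ctsd, the main aspartic protease of lysosomes, rose. Its CPM was 906, 1065 and 1103 in fibrotic and 655, 699 and 716 in FLO livers. The groups did not overlap, and the log2 fold change was 0.58 ± 0.08 (SE, edgeR adjusted p = 2.98e-05). Its share of the summed cathepsin CPM was 29.6 ± 2.54% (SD, n = 6) with ethionine against 24.6 ± 0.78% (SD, n = 6) without (exact permutation p = 0.00216, adjusted 0.00866). The shares of Ctsb, Ctsl and Ctsz gave exact permutation adjusted p of 0.16, 0.714 and 0.557.

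Ctso, a cysteine cathepsin, fell. It had 29.2, 42.5 and 55.9 CPM in fibrotic and 60.1, 66.4 and 78.1 in FLO livers, without overlap, at a log2 fold change of -0.65 ± 0.13 (SE, edgeR adjusted p = 0.000594). Ctse, an aspartic protease of immune and epithelial cells, was counted 4 to 12 times per fibrotic and 12 to 36 times per FLO library, and it met the count minimum only through the FLO group. It was called lower at a log2 fold change of -1.19 ± 0.34 (SE, edgeR adjusted p = 0.00834). The call was lost in 13 of 20 alternative fits, where its adjusted p reached 0.0264 (FLO replicate 4 left out). Of those 20, the fit that needed at least 10 counts in every library did not test Ctse.

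Several cathepsins had positive log2 fold changes without a call. Ctsb, a cysteine protease abundant in liver, had 979, 1072 and 1124 CPM in fibrotic and 883, 905 and 930 in FLO livers, without overlap, at a log2 fold change of 0.23 (edgeR adjusted p = 0.0198). Ctsl, Ctsz and Ctsk, the last known as the collagen-degrading protease of osteoclasts, had log2 fold changes of 0.36, 0.40 and 0.76 (edgeR adjusted p = 0.0188, 0.0125 and 0.0195). Ctsk was called without FLO replicate 3 (adjusted p = 0.00911) or without fibrotic replicate 2 (0.00521). Ctsa, the carboxypeptidase that also protects the enzymes Glb1 and Neu1, met the FDR limit in the other direction at -0.44 (edgeR adjusted p = 0.00145) but not the fold limit. Glb1 fell, at -1.05, and Neu1 stood at 0.43, under the fold limit; both were picked after their values were seen. Ctsc, Ctsf and Ctsh had log2 fold changes of 0.27, 0.14 and 0.13.

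Summed over members, the cathepsins of fibrotic livers held 3514 ± 88 CPM (SD, n = 6), and those of FLO livers 2824 ± 110 CPM (SD, n = 6). This was 24.4% more, and the ranges did not overlap. Ctsd contributed 343 CPM, Ctsb 158, Ctsl 140 and Ctsz 70 to the difference of 690. The pump genes summed to 1151 ± 48.5 CPM (SD, n = 6) and 1024 ± 62.1 CPM (SD, n = 6), 12.4% more, with overlapping ranges. Atp6v0c contributed 58.3 CPM and Atp6v1b2 52.5 to that difference of 127.

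Lamp1 and Lamp2 were not called. Their log2 fold changes were 0.08 (edgeR unadjusted p = 0.346) and -0.00 (edgeR unadjusted p = 0.97), so 0 of 2 also passed an unadjusted p of 0.05, and DESeq2 and limma-voom called 0.

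In FLO livers the level per kilobase of the longest principal transcript was highest for Lamp1, at 340 CPM per kilobase, followed by Ctsd at 327, Atp6v0c at 205, Ctsb at 191 and Ctsz at 154. The lowest were Ctse at 0.443, Ctsk at 0.594, Atp6v1g2 at 0.824 and Atp6v0e2 at 0.835. The choice of transcript moves single values, Ctsl standing at 79.1 with the longest and 248 with the shortest principal transcript. In fibrotic livers Ctsd stood at 488 and Atp6v0e2 at 5.89 CPM per kilobase.

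**Figure D4:**
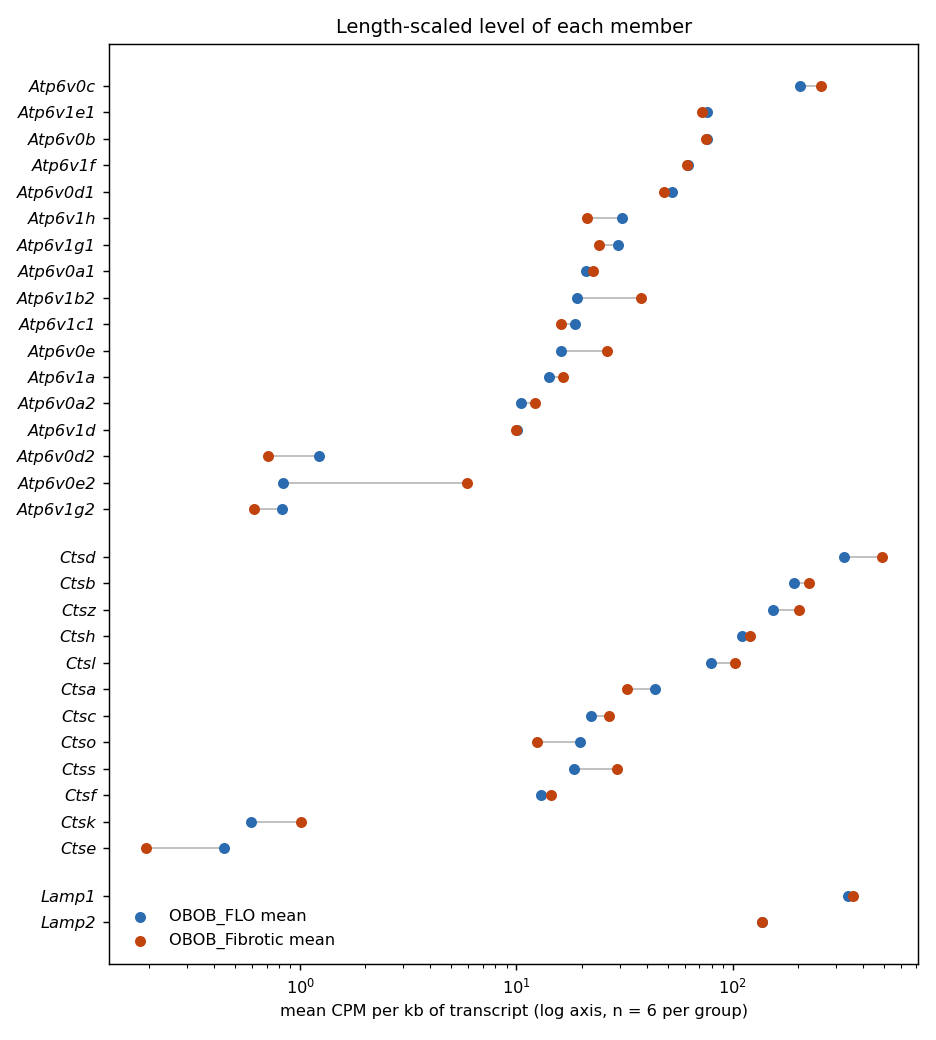
Level of each member in CPM per kilobase of its longest principal transcript (log axis) as the means of 6 FLO and 6 fibrotic livers joined by a line. Levels in FLO livers span from 0.443 for Ctse to 340 for Lamp1.

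Macrophage markers were also higher in fibrotic livers, and in bulk tissue more cells of a type cannot be told apart from more RNA per cell. Of 10 macrophage markers 6 rose and none fell (median log2 fold change 0.80), with a summed CPM of 258 to 533 in fibrotic and 176 to 220 in FLO livers. Cd14 rose by 1.72 on the log2 scale, Mpeg1 by 0.99, Adgre1, which encodes F4/80, by 0.81, Csf1r by 0.80 and Lyz2 by 0.76, and Cd68 stood at 0.32 (edgeR adjusted p = 0.236). Of 7 Kupffer cell markers 5 rose, with Marco at 1.63, Cd163 at 0.81, Vsig4 at 0.74 and Clec4f at 0.54, and 3 were called without FLO replicate 6. Their sum was 197 to 365 against 132 to 172 CPM. Of 10 lipid-associated macrophage markers 3 rose, Lpl at 1.64, Spp1 at 1.01 and Cd9 at 0.87. The other 7 were not called and pointed both ways, with Trem2 at 1.01 (edgeR adjusted p = 0.0451), Fabp5 at -0.77 (0.0216, called lower by DESeq2 and without FLO replicate 1), Mmp12 at -0.61 and Itgax at -0.30. No marker in these 3 lists was at 0 in every library. The call of Marco was lost without FLO replicate 1, 3, 4, 5 or 6 or fibrotic replicate 5. That of Spp1 was lost on leaving out any FLO replicate or fibrotic replicate 1, 4 or 5.

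Some markers of other cell types were also called, in both directions, and these calls differed in stability. The calls of Sox9, Krt23, Apoa1, Pck1 and Kdr were kept in every alternative fit at the same thresholds. The median log2 fold change was 1.26 over the cholangiocyte markers tested, -0.22 over hepatocyte, 0.02 over stellate cell and -0.28 over endothelial markers. Of 6 cholangiocyte markers 3 rose (Cldn7 at 1.54, Epcam at 1.35, Sox9 at 1.16) and Krt23 fell, at -1.50, and 1 was called higher without FLO replicate 1, 2, 4 or 5. Of 10 hepatocyte markers Apoa1, Pck1 and Serpina1c fell, at -1.68, -1.08 and -0.97, and Cps1 rose by 0.73, a call lost on leaving out any of FLO replicates 2, 4, 5 and 6 or fibrotic replicates 1 to 4. Of 8 stellate cell markers Lrat was called higher at 0.72 and Acta2 lower. The call of Lrat was lost on leaving out any library other than FLO replicate 4 and fibrotic replicates 2, 3 and 6, and that of Acta2 without FLO replicate 3 or 6 or fibrotic replicate 3, 4 or 6. Of 7 endothelial markers Kdr fell, at -0.58. None of the 2 tested neutrophil and monocyte markers was called or had an edgeR unadjusted p under 0.05. The same held for the 2 tested T and NK cell markers. DESeq2, and edgeR with no low-count filter, each called 1 neutrophil and monocyte marker higher, a gene that the low-count filter had left untested. Neither called a T and NK cell marker.

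Ctss, the cathepsin of antigen-presenting cells, varied widely between fibrotic livers. Its CPM was 44.2, 22.7, 25.8, 62.3, 39.5 and 42.6 in fibrotic replicates 1 to 6, beside macrophage marker sums of 404, 258, 310, 533, 359 and 356. The fibrotic livers lowest and highest in Ctss were also lowest and highest in the marker sum. In fibrotic replicate 4, highest in the marker sum, Ctsc (76.6 CPM) was also the highest of the fibrotic livers. Ctsl (500), Ctsz (233), Ctsh (145) and Ctso (29.2) were the lowest there, and the other cathepsins lay in between. The log2 fold change of Ctss was 0.67 ± 0.21 (SE, edgeR adjusted p = 0.0157), and Ctss was not called. It was called without fibrotic replicate 2 (adjusted p = 0.00257) or fibrotic replicate 3 (0.00532) and by DESeq2 (0.00554). What part macrophage content has in the values of Ctss, Ctsd or any other member was not tested.

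**Figure D5:**
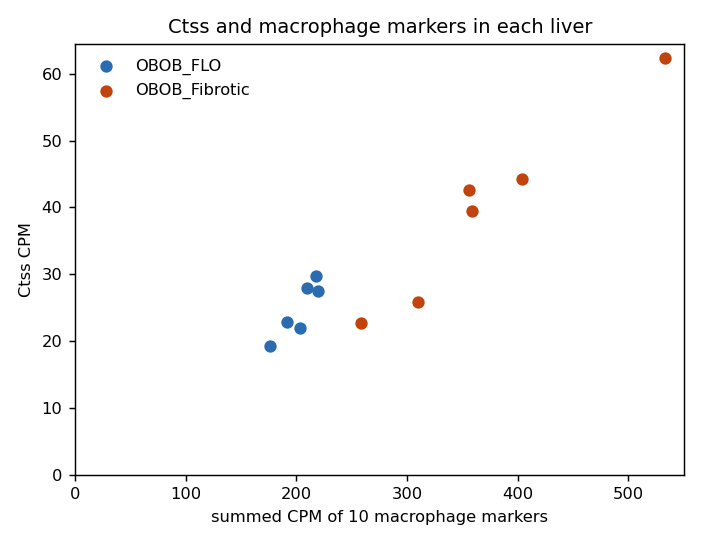
Ctss CPM against the summed CPM of 10 macrophage markers in each of the 12 livers. Fibrotic points run from 22.7 to 62.3 CPM of Ctss and from 258 to 533 CPM of markers, and all FLO points lie at 220 or less on the marker axis.

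Other genes of the lysosome were read from the same fit. For these lists and the marker lists above, the share called over all genes tested was 29.9% (15.9% higher and 14% lower). Of 12 tested accessory and assembly genes of the pump 1 rose, Ncoa7, a TLDc-domain protein that binds the pump, at a log2 fold change of 1.02. Without FLO replicate 3 or fibrotic replicate 3 or 4, 2 rose. Vma21, at -0.49 (edgeR adjusted p = 0.000792), was just under the fold limit. It was called lower by DESeq2, with RLE or upper quartile normalization, and without FLO replicate 2 or 3 or fibrotic replicate 2 or 4. The accessory subunits Atp6ap1 and Atp6ap2 stood at -0.09 and -0.05. Of 14 genes of the TFEB family and its regulators 1 rose (Tfec, at 1.47) and 1 fell (Ppp3cb, a catalytic subunit of calcineurin, at -0.55). Higher calls numbered 2 without FLO replicate 4 or fibrotic replicate 2 or 6 and 3 without fibrotic replicate 3, and Ppp3cb was not called without FLO replicate 1. Tfeb and Tfe3 themselves stood at -0.02 and -0.09, and Mitf at 0.63 (edgeR adjusted p = 0.0112). Of 11 genes of Ragulator and lysosomal amino acid sensing 2 rose and 1 fell, with Borcs6 1.99-fold higher, Sesn2 at a log2 fold change of 0.67 and Sesn3 at -0.51. The call of Sesn2 was lost without FLO replicate 3, 4, 5 or 6 or fibrotic replicate 1 or 6, and that of Sesn3 without FLO replicate 1 or 3 or fibrotic replicate 3, 5 or 6.

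Hydrolases other than cathepsins moved in both directions. Of 12 further lysosomal proteases and related enzymes 3 rose and 3 fell, with Ggh at 0.76, Cpq at -0.82 and Aga at -0.56. Of 23 glycosidases and sulfatases 2 rose and 6 fell, among them Arsa, the sulfatase of sulfatide breakdown, at -1.34 and Fuca1, a fucosidase, at -1.24, with Idua at 0.81 and Sgsh at 0.62. The call of Sgsh was lost without FLO replicate 3, 5 or 6 or fibrotic replicate 5. Of 14 lipid and nucleic acid hydrolases and lipid transfer genes 3 rose and none fell: Smpd1, acid sphingomyelinase, at 1.33, Dnase2a at 0.93 and Gm2a at 0.85.

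Of 3 tested cathepsin inhibitors 2 rose, Serpinb6a at 0.88 and Cstb, the cytosolic inhibitor of cysteine cathepsins, at 0.74, while the secreted inhibitor Cst3 stood at 0.10. Of 9 genes that sort hydrolases to the lysosome, by mannose 6-phosphate or by other receptors, 4 rose and none fell. Sort1, a sorting receptor that does not depend on mannose 6-phosphate, had 36, 40.2 and 49.6 CPM in fibrotic livers. In FLO livers it had 5.74, 12.3 and 14.5, without overlap (log2 fold change 1.88 ± 0.18 SE, edgeR adjusted p = 7.84e-07). Igf2r, the large mannose 6-phosphate receptor, rose by 0.58. M6pr, the small mannose 6-phosphate receptor, stood at -0.23 (edgeR adjusted p = 0.0186) and was not called. Gnptab rose by 0.54 and Nagpa by 0.50. The call of Nagpa was lost with DESeq2 and without FLO replicate 1, 3 or 4 or fibrotic replicate 2 or 6. That of Gnptab was lost without FLO replicate 5 or fibrotic replicate 4. Of 22 membrane proteins and channels 5 rose and 2 fell, with Mfsd12 at 0.76, Abcb9 at 0.70, and Tpcn1 and Slc17a5 both at -0.63, and 3 were called higher without FLO replicate 1.

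Without FLO replicate 3, the library that goes against its label, the only member whose call changed was Ctsk. In the lists, the calls of Sesn2, Sesn3, Sgsh, Ppt1 (a thioesterase counted among the proteases and related enzymes), Nagpa, Marco, Spp1, Lrat and Acta2 were lost. Those of Vma21 (lower), Tmem9 (higher) and Krt7 (higher) were gained.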

How the data were processed

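Poly(A) RNA of 12 whole ob/ob mouse livers, 1 library per mouse, was sequenced. The deposited table, made by the authors, holds raw counts for each Ensembl gene without normalization, and the submitters' processing notes name bcl2fastq, STAR 2.7.3a and mm10. The study's RNA-seq methods describe a stranded mRNA kit, and alignment only to a human reference. The mouse annotation and the strand setting of the counting are not given in the sources used here. If strand was not used, reads of genes that overlap a member (such as Fdft1 and Ctsb, Pltp and Ctsa, or Nelfcd and Ctsz) may not be separable. Symbols matched 51745 of 56205 identifiers.

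Groups came from the sample titles. Counts were tested with edgeR 4.0.16 in R 4.3.3 (TMM, filterByExpr, robust quasi-likelihood fit, Benjamini-Hochberg over 13416 genes), at the thresholds of the study's methods. SE is the absolute log2 fold change divided by the square root of F. All members passed filterByExpr. Exact permutation tests used all 924 splits of 6 against 6, with a smallest two-sided p of 0.00216. Intervals between libraries include counting error, and depth was 17815568 to 24814263 counts. Every pair of libraries within a group differed by more than sampling noise. The fit was tested on simulated data. Level per kilobase used GENCODE M21 principal transcripts.

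Members and gene lists were chosen with earlier results of these data known. All members were named. In each list, up to 4 called genes were named (the 2 highest and 2 lowest log2 fold changes), plus Atp6ap1, Atp6ap2, Tfeb, Tfe3, Mitf, Cstb, Cst3, Adgre1, Cd68, Clec4f and Trem2, and 1 gene that this rule selects is not reported here. Col1a1, Glb1, Neu1, Fabp5, Mmp12, Itgax, M6pr, and list genes whose call changes without FLO replicate 3 were added after their values were seen. Alternatives were RLE and upper quartile normalization, 2 other low-count filters, DESeq2 1.42.0, limma-voom (limma 3.58.1), a replicate block, a non-robust fit, each library left out in turn and 2 changed thresholds. The shares, their transcript length and library alternatives, and the list counts without each library were added after seeing the data.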

Additional observations from a re-analysis of the deposited data

Results flagged for a closer look

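In 3 of 62 groups of 6 livers, 1 library lay far from the others in a member's log2 CPM (by the gap to the nearest library as a share of the range), where chance flags about 1 in 20, or 3.1 groups. Ctsh was lowest in fibrotic replicate 4, at 145 CPM against 194 in the nearest library (0.692 of the range). Ctsk was lowest in fibrotic replicate 2, at 0.815 against 1.52 CPM (0.717). Atp6v0c was lowest in fibrotic replicate 2, at 268 against 301 CPM (0.763).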

How the results depend on the processing

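Under 22 alternatives, 623 of 681 member values kept direction and call, 19 lost a call, 19 gained one and 20 changed sign, and 22 of 31 members kept both in every fit at the same thresholds. The sign changes were in Atp6v0b (-0.08 to 0.04 on leaving out 1 library), Atp6v1d (-0.08 to 0.03), Atp6v1f (-0.07 to 0.03) and Lamp2 (-0.02 to 0.03, and 0.00 with at least 10 counts in every library), all near 0. With a log2 limit of 1, 1 pump gene, 1 cathepsin and 1697 of all genes were called, and at an FDR of 0.05 with no fold limit 8, 9 and 6994. Leaving out 1 library gave 3 to 5 pump genes, 2 to 5 cathepsins (5 without fibrotic replicate 2) and 3798 to 4093 of all genes, and medians of -0.05 to 0.03 for the pump and 0.21 to 0.29 for the cathepsins. Macrophage and lipid-associated macrophage markers called higher numbered 5 to 8 and 2 to 4. DESeq2 called 5 pump genes and 4 cathepsins.

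Deviations of livers with the same replicate number correlated at -0.187 to 0.131. Livers with unlike numbers were not compared, so this does not decide whether the numbers mark pairs. A replicate block gave 4 pump genes, 2 cathepsins and 0 LAMP genes called, without Ctse (adjusted p = 0.025). In the lists it left 1 lipid-associated macrophage, 1 cholangiocyte and 0 stellate cell markers called higher, 0 stellate markers lower, Sesn3 not called, and Mitf called higher. Leaving out 1 library turned the sign of the share difference of Atp6v1g2 (-0.489 to 0.0598 percentage points) and of Ctsl (-0.105 to 1.24). The cause was not tested. Depth limits Ctse, counted 4 to 36 times per library.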
